A study of Mus musculus with 8 samples.

Results

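The genes examined here are the 40 protein-coding neighbours of Ccdc92 on mouse chromosome 5. Ccdc92 lay at chromosome 5, 124834418 to 124862424, minus strand, in GENCODE M21 on the build GRCm38. Its neighbours were taken from a 3 Mb window reaching 1.43 Mb below and 1.54 Mb above it. The deposited counts held 60 genes of any type there. Of these, 44 were protein-coding, and 4 of the 44, Ccdc92 among them, were set aside. The 40 are part of 24821 genes in the whole table, which held no gene with fewer than 10 reads in sum. Within it they were chosen by position and gene type, and 1 other annotated protein-coding gene of the window was absent. The tissue was the white fat beside the epididymis (eWAT), sequenced in 4 Ccdc92 KO and 4 WT libraries. All mice were male, on a C57BL/6 background, and had eaten a high-fat diet for 14 weeks, in which fat gave 60%, protein 20% and carbohydrate 20% of the calories. Age-matched WT littermates served as controls. The labels name neither the deleted part of the gene nor the way the allele was made, and they do not say that the libraries came from separate animals. The p-values therefore measure only the spread between these libraries, which may be technical.

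Ccdc92 encodes a coiled-coil protein. In humans, common variants across the block that holds CCDC92, DNAH10 and ZNF664 are associated with body fat distribution and insulin resistance, and such a block makes it hard to say which gene a variant acts through. A deletion can also touch its neighbours, since genes that start close together can share a promoter region and genes that end close together can run into each other. The flanking genes include a receptor for high density lipoprotein, an enzyme of ketone use and many genes that every cell uses.

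Ccdc92 had 9.2, 5.1, 9.7 and 4.9 normalized counts in KO libraries 1 to 4, against 54.1, 68.3, 105.8 and 99.2 in WT libraries 1 to 4. Its libraries did not overlap between groups, and the KO mean was 8.81% of the WT mean, with a log2 fold change of -3.34, an SE of 0.33 and a limma adjusted p of 0.000383. An exact permutation test over the 70 possible splits gave a two-sided p of 0.0286, the smallest it can give. Reads per library ran from 23681088 to 33817478 in KO and from 27760429 to 29887921 in WT. Along the first principal component, with 60.2% of the variance, the groups were apart, KO libraries at -106.3 to -49.4 and WT libraries at 41.5 to 88.9. Every fold change here is KO over WT on the scale log2(normalized count + 1), which understates changes of low genes, and a gene was called higher or lower at a limma adjusted p under 0.05.

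The 8 libraries also differed widely in marker genes of cell types. All 10 adipocyte markers were higher in KO, with sums of 920646.6 to 1198234.6 normalized counts in KO and 302209.2 to 510394.5 in WT. Of 10 macrophage markers, 9 were lower in KO, with sums of 28614.8 to 43396.7 in KO and 87118.0 to 135712.9 in WT, and 5 of 5 mast cell markers and 3 of 5 T cell markers were lower in KO as well. The 10 epididymis markers summed to 9.7 to 1188.8 in KO and 31991.3 to 110891.5 in WT, with Lcn9 at 0 in all WT libraries, and 4 of the 6 that could be fitted were lower in KO. In KO library 4 their whole sum was 9.7, so none could enter the fit without WT libraries, where the sum was high. These calls are therefore no support for a difference. Endothelial markers were higher in KO for 3 of 5 and fibroblast markers lower for 2 of 5. Of all 17798 genes tested, 20.2% were higher and 21.5% lower. Among mesothelial, red cell or skeletal muscle markers, 0 passed with limma, edgeR or DESeq2, also at an unadjusted p under 0.05. KO library 3 stood apart in red cell markers, with a sum of 4952402.2 normalized counts against 47631.8 to 340893.7 in the other 7 libraries, and the hemoglobin gene Hbb-bs was its most abundant gene, with 5.78% of its reads. Without that library, 8 flanking genes were called higher and 6 lower. In bulk tissue, fewer cells of a type and less RNA per cell cannot be told apart, and the part of cell composition in the values of the flanking genes was not tested.

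Of the 40 flanking genes, 37 reached 10 normalized counts in 4 or more libraries and entered the fit. In KO, 9 of them were higher and 7 lower, so that 16 of 37 (43.2%) were called. The background was close to this: 7423 of all 17798 genes tested were called, 41.7%, with 20.2% higher and 21.5% lower, and 44.4% of protein-coding genes were called. Over all genes the split was 3592 higher and 3831 lower, and after quantile normalization 4593 higher and 3257 lower. The KO and WT libraries did not overlap for 18 of the 37 (48.6%), against 42.1% of all genes. The median log2 fold change of the flanking genes was 0.12, against -0.01 for all genes tested, and the median size of the change regardless of direction was 0.31, against 0.40. Of the 37, 4 genes, Aacs, Kntc1, Bri3bp and Rilpl2, were called with a change of at least 2-fold, against 3069 of all 17798 genes tested (17.2%). The 3 not fitted, Lrrc43, Gm49027 and Gm43518, reached at most 11.5 normalized counts in any library.

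**Figure D1:**
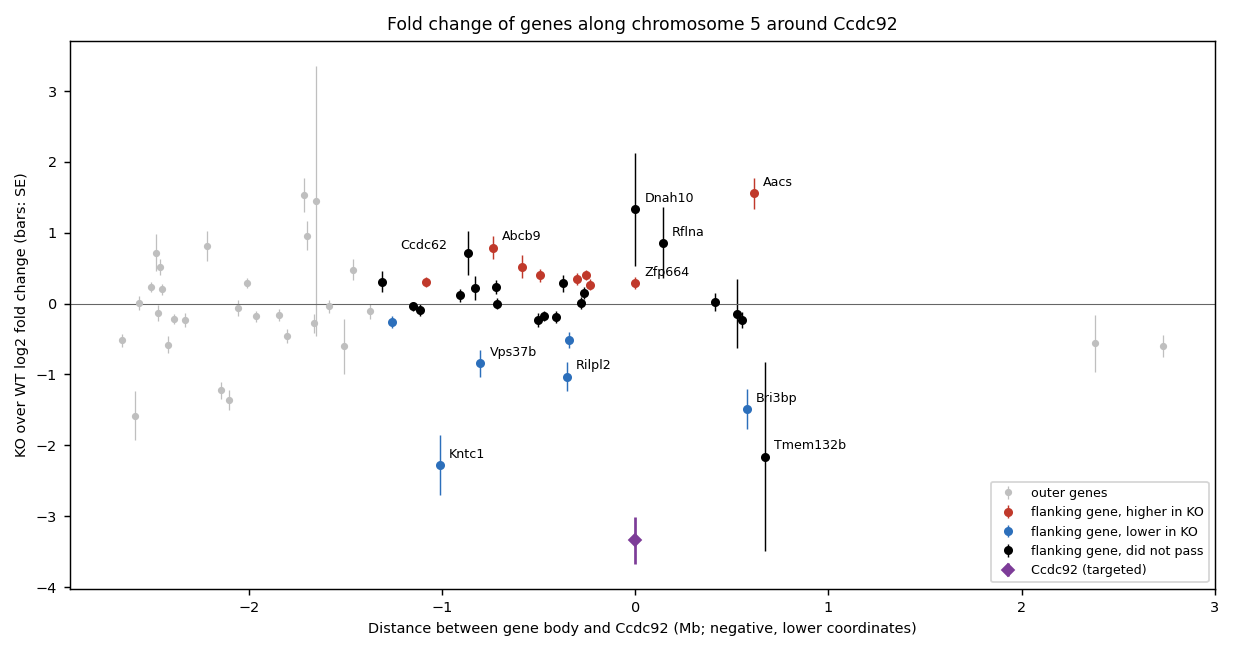
Log2 fold change (KO over WT, bars SE) of 35 of the 37 fitted flanking genes, of Ccdc92 and of the 29 fitted genes in the next 1.5 Mb on either side, against the distance between each gene body and Ccdc92 in Mb. Genes higher in KO, genes lower in KO and genes that did not pass are interspersed at lower coordinates and within the window. Beyond the window at higher coordinates only 2 fitted genes lie, 0 of them higher. Every neighbour plotted lies above the -3.34 of Ccdc92.

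Called genes were found in every zone of distance. Within 0.5 Mb of Ccdc92, 5 of 16 fitted genes were higher and 3 lower in KO (50% called), with a median log2 fold change of 0.21. Between 0.5 and 1 Mb, 3 of 15 were higher and 2 lower (33.3%), with a median of 0.12. At 1 Mb and beyond, 1 of 6 was higher and 2 were lower (50%), with a median of -0.07. At lower coordinates than Ccdc92, 7 of 27 were higher and 5 lower (44.4%), and at higher coordinates 2 of 10 were higher and 2 lower (40%). On the plus strand 4 of 19 were higher and 3 lower, and on the minus strand 5 of 18 were higher and 4 lower. The rest of chromosome 5 had 40.5% of 1075 fitted genes called, and the 29 fitted genes of the next 1.5 Mb on either side had 7 higher and 8 lower (51.7%). All these shares lie around the 41.7% of the whole table.

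The nearest neighbour at higher coordinates, Zfp664, starts 266 bases from the start of Ccdc92 and is read away from it. It encodes a zinc finger protein. Zfp664 (ENSMUSG00000079215.8, chromosome 5, 124862691 to 124902693, plus strand) had 2299.4, 2120.1, 2292.8 and 2364.9 normalized counts in KO libraries 1 to 4, against 1670.4, 2088.8, 1772.1 and 1933.5 in WT libraries 1 to 4. Every KO library lay above every WT library, although the lowest KO value and the highest WT value were close, and the 1.22-fold difference (log2 fold change 0.29, SE 0.09, limma adjusted p 0.0266) was among the smallest called. It missed the threshold when one of several libraries was left out, with a limma adjusted p of 0.0647 without KO library 1, 0.0587 without KO library 3, 0.0595 without KO library 4, 0.0586 without WT library 1 and 0.0791 without WT library 3. The 300 bases around the Zfp664 start are shown because they begin inside the short stretch between the starts of both genes, at chr5:124862455-124862754 on the plus strand of GRCm38.p6, with 250 bases before and 50 after the start, from RefSeq. Capitals mark the GC box GGGCGG on either strand, which occurs 4 times:
Zfp664 promoter: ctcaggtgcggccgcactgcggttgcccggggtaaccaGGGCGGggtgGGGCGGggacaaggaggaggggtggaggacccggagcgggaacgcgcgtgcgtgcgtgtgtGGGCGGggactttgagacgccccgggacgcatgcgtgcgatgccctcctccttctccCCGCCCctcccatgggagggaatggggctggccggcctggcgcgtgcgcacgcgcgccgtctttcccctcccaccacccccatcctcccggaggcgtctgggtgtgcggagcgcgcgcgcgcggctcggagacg
The window held no CCAAT box, no cell cycle element TTTGAA and no TATA box TATAAA.

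The nearest neighbour at lower coordinates, Dnah10, ends 109 bases from the end of Ccdc92, with both genes read toward each other. It encodes a heavy chain of the inner dynein arms of motile cilia. Dnah10 (ENSMUSG00000038011.15, chromosome 5, 124725085 to 124834308, plus strand) had 157.4, 56.4, 9.7 and 18.2 normalized counts in KO libraries 1 to 4, against 6.4, 16.3, 14.9 and 21.5 in WT libraries 1 to 4. KO library 1 and, less so, KO library 2 were far above the other 6, which lay between 6.4 and 21.5, so the groups overlapped and the gene did not pass (log2 fold change 1.33, SE 0.80, limma adjusted p 0.212, 95% interval -0.50 to 3.17). Without KO libraries 1 and 2, left out after the values had been seen because they were the highest, the log2 fold change was -0.03. DESeq2, one of the alternative tests, did call it, with a log2 fold change of 2.04 and an adjusted p of 0.0299.

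The summed level of other motile cilium genes was highest in the same libraries. A list of 20 such genes, written after the Dnah10 values had been seen, summed to 4498.8, 1441.6, 241.9 and 275.3 normalized counts in KO libraries 1 to 4, against 411.0, 756.8, 611.7 and 535.6 in WT libraries 1 to 4. Of the 16 that could be fitted, limma called 0, also at an unadjusted p under 0.05. With edgeR 0 were called (2 at an unadjusted p under 0.05), and with DESeq2 2 were called higher, Dnah6 and Foxj1 (3 at an unadjusted p under 0.05). Foxj1, the master regulator of motile cilia, had 1027.3, 295.7, 3.2 and 2.4 normalized counts in KO libraries 1 to 4, against 7.3, 52.9, 12.1 and 10.3 in WT libraries 1 to 4. Single genes of the list did not all follow the sum in KO library 2: Hydin had 106.0 normalized counts there, against 55.0, 140.4, 122.5 and 125.5 in WT libraries 1 to 4. Dnah10 was high in the libraries in which Foxj1 and this sum were high, and the part of motile cilia in its values was not tested.

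**Figure D2:**
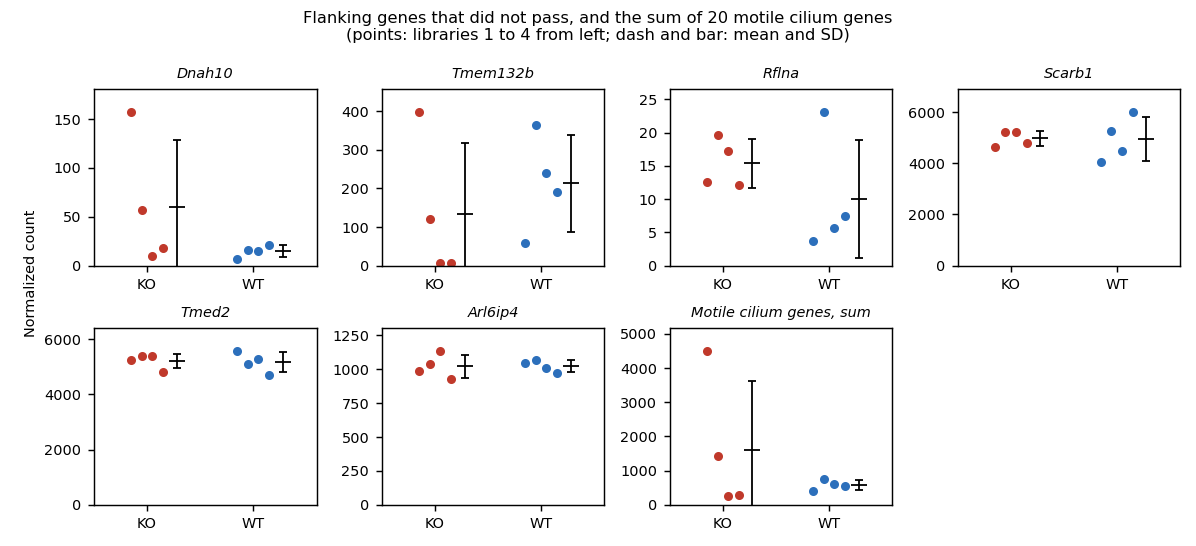
Normalized counts per library in KO and WT (points, libraries 1 to 4 from left; dash and bar, mean and SD, cut at 0) for 6 flanking genes that did not pass and for the sum of the 20 motile cilium genes. Dnah10 and the cilium sum are high in KO libraries 1 and 2, and Scarb1, Tmed2 and Arl6ip4 overlap between groups.

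Rflna and Scarb1 lie farther on at higher coordinates. Rflna encodes refilin A, a filamin-binding protein. Rflna had 12.6, 19.7, 17.2 and 12.1 normalized counts in KO libraries 1 to 4, against 3.7, 23.1, 5.6 and 7.5 in WT libraries 1 to 4. It was near the limit of the filter, with 10 or more counts in 4 KO libraries and 1 WT library, and did not pass (log2 fold change 0.86, SE 0.50, limma adjusted p 0.202). WT library 2 was its highest library of all and its only WT library at 10 or more counts. Without that library the log2 fold change was 1.33 with a limma adjusted p of 0.0237. Rflna was then in the test only through the KO libraries, where it was high, so this p is no support for a difference.

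Scarb1 encodes SR-BI, the receptor through which cells take up cholesterol esters from high density lipoprotein. Scarb1 (ENSMUSG00000037936.15, chromosome 5, 125277087 to 125341094, minus strand) had 4655.1, 5243.5, 5222.9 and 4790.4 normalized counts in KO libraries 1 to 4, against 4061.9, 5259.4, 4478.1 and 6012.1 in WT libraries 1 to 4. The groups overlapped, and the difference was close to 0 (log2 fold change 0.02, SE 0.13, limma adjusted p 0.904, 95% interval -0.27 to 0.31). In the related list, Abcg1, which exports cholesterol to that lipoprotein, was lower in KO (-1.09, limma adjusted p 0.00335), while Cd36 (0.02), Abca1 (-0.04) and Scarb2 (-0.29) did not pass.

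The farther genes on this side held the largest rise among the flanking genes, in Aacs, next to a fall of similar size, in Bri3bp. Aacs, 613.4 kb away, encodes cytosolic acetoacetyl-CoA synthetase, which feeds ketone bodies into lipid synthesis. Aacs (ENSMUSG00000029482.4, chromosome 5, 125475814 to 125517410, plus strand) had 5035.5, 3758.3, 6390.3 and 7053.4 normalized counts in KO libraries 1 to 4, against 1390.7, 2300.3, 1766.6 and 1980.3 in WT libraries 1 to 4. All KO libraries were above all WT libraries, and the 2.95-fold rise was the largest among the flanking genes (log2 fold change 1.56, SE 0.22, limma adjusted p 0.00122). Per kilobase of exon, Aacs stood at 1440 ± 380 normalized counts in KO and 482 ± 99.1 in WT (SD, n = 4 each). Of 4 other genes of ketone use, Acat1 (1.12, limma adjusted p 0.000955) and Oxct1 (0.78, limma adjusted p 0.0015), the mitochondrial enzymes that break ketone bodies down, were higher in KO. Acat2 had a log2 fold change of 0.20 and Bdh1 one of -2.37, with a limma adjusted p of 0.0563, and neither passed with limma, although edgeR and DESeq2 each called 1 gene of the list lower, which was Bdh1. Aacs moved in the direction of the adipocyte markers, whose sums are given above, and of 3 of 5 endothelial markers, where 20.2% of all genes tested were higher. The part of these cell types in its rise was not tested.

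Bri3bp, the gene next to Aacs and read in the same direction, encodes a membrane protein that binds BRI3. Bri3bp (ENSMUSG00000037905.13, chromosome 5, 125441568 to 125460370, plus strand) had 247.1, 245.3, 267.6 and 236.5 normalized counts in KO libraries 1 to 4, against 741.2, 860.7, 1024.8 and 371.7 in WT libraries 1 to 4. The KO libraries lay close together, at 236.5 to 267.6, and all below the WT libraries, of which WT library 4 was the lowest. The fall was 2.81-fold (log2 fold change -1.49, SE 0.28, limma adjusted p 0.00385). Markers of macrophages (9 of 10), mast cells (5 of 5), T cells (3 of 5), epididymis (4 of 6 fitted, with the limit given above) and cycling cells (8 of 8) were also lower in KO. The epididymis markers summed to 51.7, 290.5, 1188.8 and 9.7 normalized counts in KO libraries 1 to 4, against 52185.4, 110891.5, 99906.3 and 31991.3 in WT libraries 1 to 4. Among WT libraries this sum and Bri3bp were both lowest in library 4, but the sum was highest in library 2 and Bri3bp in library 3. The macrophage, mast cell, T cell and cycling cell sums were all lowest among WT libraries in library 2. For macrophages this was 87118.0, against 99411.0 in WT library 4. These orders are a description only. The part of these cell types in the fall of Bri3bp was not tested.

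Tmem132b, the last gene on this side, encodes a membrane protein. Tmem132b (ENSMUSG00000070498.3, chromosome 5, 125531774 to 125792583, plus strand) had 398.7, 121.3, 5.4 and 7.3 normalized counts in KO libraries 1 to 4, against 59.6, 363.5, 240.4 and 190.1 in WT libraries 1 to 4. Of the KO libraries, 1 and 2 were high and 3 and 4 low, so the groups overlapped and the gene did not pass (log2 fold change -2.16, SE 1.33, limma adjusted p 0.221). Count tests on the recovered reads gave -0.66 with edgeR and -0.68 with DESeq2. Tmem132b reached 10 normalized counts in 2 KO and 4 WT libraries. Without KO libraries 1 and 2, a choice made after seeing the data, limma called it. It then reached 10 counts only in WT libraries, so that call is no support for a difference. Within each group, the libraries had the same order for Tmem132b as for the motile cilium sum given above. From high to low this was 1, 2, 4 and 3 in KO and 2, 3, 4 and 1 in WT. The cilium list was written after the Dnah10 values had been seen, so this shared order is a description only. Between groups the order differed. WT library 3 had 240.4 normalized counts of Tmem132b and KO library 2 had 121.3, while their cilium sums were 611.7 and 1441.6. The part of motile cilia in its values was not tested. Gm10382 (-0.14, SE 0.49) and Dhx37, an RNA helicase of ribosome assembly (-0.23, limma adjusted p 0.124), did not pass either, but Dhx37 passed without KO library 4 (-0.30, limma adjusted p 0.0489). Gm10382 had no stable sign across the alternatives.

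At lower coordinates, Gtf2h3 and Eif2b1 lie 236.7 and 255.3 kb from Ccdc92 and start 8 bases apart on opposite strands. Gtf2h3 encodes a subunit of TFIIH, used in transcription and DNA repair. Gtf2h3 (ENSMUSG00000029387.10, chromosome 5, 124579140 to 124597680, plus strand) had 378.1, 379.4, 399.9 and 442.7 normalized counts in KO libraries 1 to 4, against 330.2, 337.5, 331.4 and 321.2 in WT libraries 1 to 4. Eif2b1 encodes the alpha subunit of eIF2B, the exchange factor of translation initiation. Eif2b1 (ENSMUSG00000029388.14, chromosome 5, 124570213 to 124579131, minus strand) had 933.1, 1031.4, 1019.0 and 908.3 normalized counts in KO libraries 1 to 4, against 707.3, 744.3, 765.8 and 728.5 in WT libraries 1 to 4. Both were higher in KO with no overlap between groups, Eif2b1 by 1.32-fold (log2 fold change 0.40, SE 0.07, limma adjusted p 0.00305) and Gtf2h3 by 1.21-fold (log2 fold change 0.27, SE 0.08, limma adjusted p 0.0291).

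The call of Gtf2h3 was lost without KO library 3 (limma adjusted p 0.0592), KO library 4 (0.0588), WT library 1 (0.0535), WT library 3 (0.0724) or WT library 4 (0.0622). Of the other 4 eIF2B subunits, Eif2b3 (0.86, limma adjusted p 0.00139) and Eif2b5 (0.31, limma adjusted p 0.00332) were higher in KO, and Eif2b2 (-0.18) and Eif2b4 (-0.04) did not pass. Of 9 other TFIIH genes, Gtf2h5 (0.50, limma adjusted p 0.00855) and Mnat1 (0.31, limma adjusted p 0.0344) were higher and 7 did not pass, with 20.2% of all genes tested higher. Mnat1 lost its call without any one of KO libraries 1, 2 and 3 and WT libraries 1, 3 and 4 (limma adjusted p 0.0582 to 0.0907). The promoter windows of Gtf2h3 (chr5:124578898-124579197, plus strand) and Eif2b1 (chr5:124579082-124579381, minus strand) overlap, and the first is shown as the most closely paired start region of the neighbourhood, from RefSeq on GRCm38.p6, with the GC box GGGCGG in capitals:
Gtf2h3 promoter: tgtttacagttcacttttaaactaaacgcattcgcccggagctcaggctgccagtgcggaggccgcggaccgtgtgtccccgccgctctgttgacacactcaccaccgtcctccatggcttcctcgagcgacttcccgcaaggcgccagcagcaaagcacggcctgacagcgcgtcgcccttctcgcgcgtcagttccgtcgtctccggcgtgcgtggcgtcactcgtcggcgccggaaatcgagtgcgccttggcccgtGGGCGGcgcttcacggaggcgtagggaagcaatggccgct
The single GC box lay 11 to 16 bases after the Gtf2h3 start, and the Eif2b1 window held 3.

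Ddx55, an RNA helicase gene next to Eif2b1, and Tmed2, a p24 cargo receptor of vesicles between the endoplasmic reticulum and the Golgi, did not pass. Ddx55 had 330.9, 322.2, 306.3 and 354.1 normalized counts in KO libraries 1 to 4, against 313.7, 299.1, 283.1 and 290.3 in WT libraries 1 to 4. Tmed2 had 5233.1, 5383.6, 5413.2 and 4831.6 normalized counts in KO libraries 1 to 4, against 5574.6, 5114.2, 5287.6 and 4711.6 in WT libraries 1 to 4. Tmed2 overlapped between groups, with a log2 fold change of 0.01 and a 95% interval of -0.17 to 0.20, and Ddx55 overlapped as well (log2 fold change 0.15, SE 0.09, limma adjusted p 0.206). Of 7 other p24 genes, Tmed4 (0.28, limma adjusted p 0.00978) and Tmed5 (0.34, limma adjusted p 0.0467) were higher in KO. Tmed3 (-0.54, limma adjusted p 0.00685), Tmed7 (-0.36, limma adjusted p 0.00837), Tmed9 (-0.30, limma adjusted p 0.0239) and Tmed10 (-0.38, limma adjusted p 0.0109) were lower. The call of Tmed5 was lost without KO library 1 (limma adjusted p 0.107), 2 (0.107) or 3 (0.0751) or WT library 1 (0.104), 3 (0.118) or 4 (0.0949). The call of Tmed9 was lost without KO library 1 (limma adjusted p 0.0538) or 4 (0.0565) or WT library 1 (0.0506) or 3 (0.0731).

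Rilpl1 and Rilpl2, neighbours that both encode Rab-binding proteins related to RILP, went opposite ways. Rilpl2 (ENSMUSG00000029401.8, chromosome 5, 124463265 to 124478366, minus strand) had 657.3, 722.9, 584.7 and 601.5 normalized counts in KO libraries 1 to 4, against 1893.3, 942.4, 1482.5 and 1099.2 in WT libraries 1 to 4. Rilpl1 (ENSMUSG00000029392.12, chromosome 5, 124493080 to 124531391, minus strand) had 445.9, 468.3, 486.9 and 494.8 normalized counts in KO libraries 1 to 4, against 391.7, 346.2, 366.7 and 383.0 in WT libraries 1 to 4. Rilpl2 was 2.04-fold lower in KO (log2 fold change -1.03, SE 0.20, limma adjusted p 0.00506) and Rilpl1 1.27-fold higher (log2 fold change 0.35, SE 0.08, limma adjusted p 0.00856), each with no overlap between groups. The WT libraries of Rilpl2 were the more spread, with a coefficient of variation of 31.4%, against 9.7% in KO. Snrnp35, which lies between them, encodes a protein of the U11/U12 particle of the minor spliceosome. Snrnp35 (ENSMUSG00000029402.8, chromosome 5, 124483134 to 124491124, plus strand) had 219.5, 221.3, 203.2 and 218.3 normalized counts in KO libraries 1 to 4, against 316.5, 261.6, 347.2 and 308.0 in WT libraries 1 to 4. All KO libraries were below all WT libraries (log2 fold change -0.51, SE 0.11, limma adjusted p 0.00687). Of 6 other genes of that particle, Rnpc3 (0.61, limma adjusted p 0.00571) and Zcrb1 (0.38, limma adjusted p 0.00598) were higher in KO and none was lower, with 20.2% of all genes tested higher.

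Tctn2, at 206.7 kb, is not among the 40 because the annotation types it as a processed transcript; it was looked at after its values had been seen. It encodes a tectonic protein of the transition zone of the primary cilium. Tctn2 had 412.5, 416.2, 423.5 and 423.2 normalized counts in KO libraries 1 to 4, against 178.9, 258.7, 240.4 and 286.5 in WT libraries 1 to 4. It was higher in every KO library (log2 fold change 0.82, SE 0.14, limma adjusted p 0.0028). Of 7 other transition zone genes, Cc2d2a (0.73, limma adjusted p 0.00176) and Mks1 (0.41, limma adjusted p 0.0243) were higher and none lower, with 20.2% of all genes tested higher. The call of Mks1 was lost without KO library 1 (limma adjusted p 0.0554) or KO library 4 (limma adjusted p 0.0517) or WT library 3 (limma adjusted p 0.0722) or WT library 4 (limma adjusted p 0.0539).

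At 492.6 and 584.7 kb below Ccdc92, 2810006K23Rik and Pitpnm2 were higher in KO. 2810006K23Rik (ENSMUSG00000047635.6, chromosome 5, 124328089 to 124341844, plus strand) had 304.5, 266.6, 285.9 and 285.0 normalized counts in KO libraries 1 to 4, against 212.8, 227.0, 216.3 and 207.9 in WT libraries 1 to 4. Pitpnm2 (ENSMUSG00000029406.15, chromosome 5, 124118690 to 124249760, minus strand) had 2522.3, 2679.0, 2473.3 and 3023.4 normalized counts in KO libraries 1 to 4, against 1403.5, 2319.6, 1703.4 and 2162.9 in WT libraries 1 to 4. Neither overlapped between groups, and the rise was 1.32-fold for 2810006K23Rik (log2 fold change 0.40, SE 0.09, limma adjusted p 0.00837) and 1.43-fold for Pitpnm2 (log2 fold change 0.52, SE 0.16, limma adjusted p 0.0296). Pitpnm2, which encodes a phosphatidylinositol transfer protein, lost its call without KO library 1 (limma adjusted p 0.0513), KO library 2 (0.0588), KO library 4 (0.0746) or WT library 3 (0.0789). Of 4 other transfer proteins, Pitpnm3 (1.72, limma adjusted p 0.00393) and Pitpnb (0.41, limma adjusted p 0.00334) were higher and Pitpna was lower (-0.69, limma adjusted p 0.00975). Mphosph9, a centriole gene, and Cdk2ap1, which encodes a protein that binds CDK2, did not overlap between groups but missed the threshold (-0.23, limma adjusted p 0.0943, and -0.17, limma adjusted p 0.077). With DESeq2, Cdk2ap1 was called (-0.17, DESeq2 adjusted p 0.0461). Sbno1 (-0.19, limma adjusted p 0.0994) and Kmt5a, the monomethyltransferase of histone H4 lysine 20 (0.29, limma adjusted p 0.0895), did not pass; without KO library 3 Kmt5a did (0.38, limma adjusted p 0.0375).

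Farther out, Abcb9 was higher and Vps37b lower in KO, and both encode proteins of the endosome and lysosome. Abcb9 (ENSMUSG00000029408.13, chromosome 5, 124061530 to 124095798, minus strand) had 651.6, 985.3, 741.7 and 703.4 normalized counts in KO libraries 1 to 4, against 366.9, 452.0, 403.8 and 555.2 in WT libraries 1 to 4. Abcb9, a peptide transporter of the lysosomal membrane, was 1.73-fold higher with no overlap (log2 fold change 0.79, SE 0.16, limma adjusted p 0.00587). Vps37b (ENSMUSG00000066278.6, chromosome 5, 124004641 to 124032270, minus strand) had 168.9, 220.5, 201.0 and 166.1 normalized counts in KO libraries 1 to 4, against 447.7, 246.2, 376.9 and 309.0 in WT libraries 1 to 4. Vps37b, a subunit of the ESCRT-I complex of endosomal sorting, was 1.79-fold lower with no overlap (log2 fold change -0.84, SE 0.19, limma adjusted p 0.00908). Of 8 other ESCRT-I genes, Vps37d (-1.43, limma adjusted p 0.00685) and Mvb12a (-0.49, limma adjusted p 0.00785) were lower and none higher, with 21.5% of all genes tested lower. Of the Vps37b exons, 32.9% overlap exons of Hip1r on the other strand, and the strand setting of the counting is not given in the sources used here. Hip1r, a link between clathrin and actin, did not pass (0.22, limma adjusted p 0.314).

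Arl6ip4, a splicing-related gene, was the least changed of all. Arl6ip4 (ENSMUSG00000029404.15, chromosome 5, 124116089 to 124118196, plus strand) had 984.8, 1038.3, 1134.0 and 931.4 normalized counts in KO libraries 1 to 4, against 1043.9, 1071.3, 1010.0 and 969.1 in WT libraries 1 to 4. The groups overlapped fully, with a log2 fold change of -0.00 and a 95% interval of -0.19 to 0.18. Ogfod2 (0.23, limma adjusted p 0.0881), Denr, a factor of translation reinitiation (0.12, limma adjusted p 0.286), and Ccdc62 (0.72, SE 0.31, limma adjusted p 0.092) did not pass. Ogfod2 passed without KO library 1 (0.29, limma adjusted p 0.0443), and also under quantile normalization, upper quartile scaling and without KO libraries 1 and 2 together. Ccdc62 passed under quantile normalization (0.95, limma adjusted p 0.0312), with a replicate block (0.72, limma adjusted p 0.0383) and without KO libraries 1 and 2 together (1.1, limma adjusted p 0.0487).

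**Figure D3:**
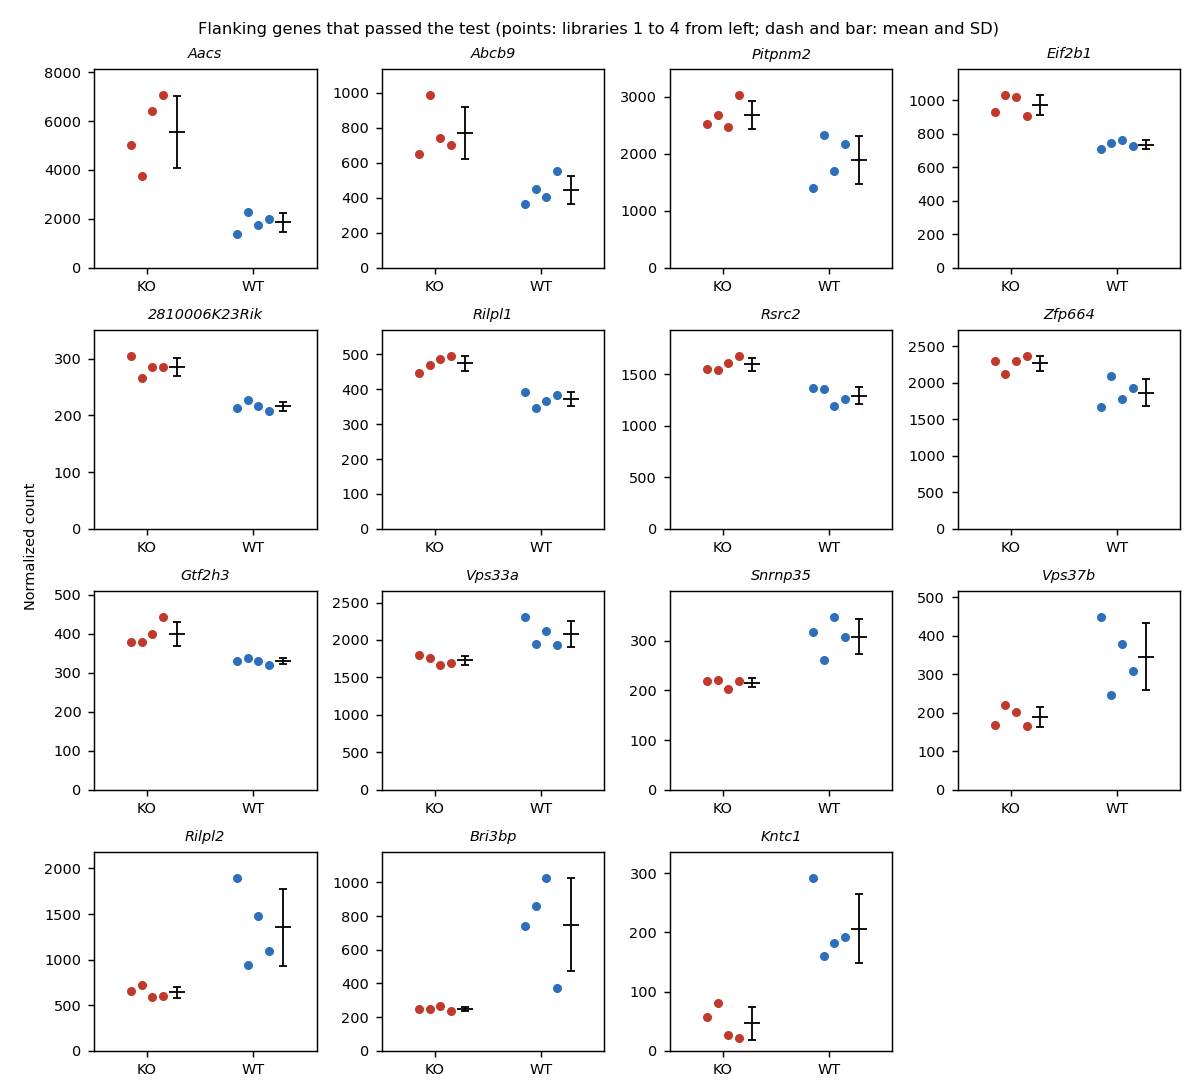
Normalized counts per library in KO and WT (points, libraries 1 to 4 from left; dash and bar, mean and SD) for 15 of the 16 flanking genes that passed the test, ordered from the largest rise, Aacs at 1.56, to the deepest fall, Kntc1 at -2.28. The libraries of the groups do not overlap in any panel, and the panels start at 0.

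Kntc1, 1012.8 kb from Ccdc92, had the deepest fall of the flanking genes. It encodes the Rod subunit of the RZZ complex, which works at the kinetochore in mitosis. Kntc1 (ENSMUSG00000029414.11, chromosome 5, 123749716 to 123821593, plus strand) had 56.3, 81.2, 26.9 and 21.8 normalized counts in KO libraries 1 to 4, against 291.7, 159.6, 182.9 and 191.9 in WT libraries 1 to 4. All KO libraries were below all WT libraries, with 187 reads in KO and 886 in WT and a 4.86-fold difference (log2 fold change -2.28, SE 0.42, limma adjusted p 0.00345). Zwilch, another subunit, was lower in KO (-1.06, limma adjusted p 0.00881) and Zw10, which also acts outside mitosis, did not pass (-0.10, limma adjusted p 0.346). All 8 markers of cycling cells were lower in KO, with sums of 602.7 to 2260.3 normalized counts in KO and 4462.2 to 6478.1 in WT and a median log2 fold change of -2.04. Kntc1 moved with those markers, and the part of cycling cells in its fall was not tested.

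Rsrc2, which encodes an arginine- and serine-rich protein, starts 301 bases from Kntc1 on the other strand. Rsrc2 (ENSMUSG00000029422.15, chromosome 5, 123728426 to 123749414, minus strand) had 1551.3, 1540.7, 1608.0 and 1673.6 normalized counts in KO libraries 1 to 4, against 1361.3, 1356.0, 1187.3 and 1255.6 in WT libraries 1 to 4. It was 1.24-fold higher in KO with no overlap between groups (log2 fold change 0.31, SE 0.07, limma adjusted p 0.00946), so the log2 fold changes of this pair with adjoining starts were 2.59 apart. With WT library 4 and KO library 3 both left out, its limma adjusted p was 0.052. The Kntc1 start region is shown because it lies between these oppositely moving genes and holds motifs known from cell cycle promoters. It is chr5:123749476-123749775 on the plus strand of GRCm38.p6, from RefSeq, and capitals mark GGGCGG (3 times), CCAAT (2 times) and TTTGAA (1 time) on either strand:
Kntc1 promoter: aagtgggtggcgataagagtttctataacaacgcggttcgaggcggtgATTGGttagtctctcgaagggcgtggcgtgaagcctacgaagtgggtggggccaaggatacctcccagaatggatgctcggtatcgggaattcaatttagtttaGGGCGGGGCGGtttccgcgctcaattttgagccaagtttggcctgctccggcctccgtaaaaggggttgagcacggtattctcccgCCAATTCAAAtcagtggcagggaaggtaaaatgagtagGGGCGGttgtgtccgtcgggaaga
One CCAAT box and the TTTGAA element, known as the CHR, share 1 base 8 bases before the start. The Rsrc2 window overlaps this one, and its 2 GC boxes and 1 CCAAT box are also sites of the Kntc1 window. TTTGAA was found in windows of Bri3bp, Dnah10 and Snrnp35 as well. A match of letters is a description, not a bound site.

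**Figure D4:**
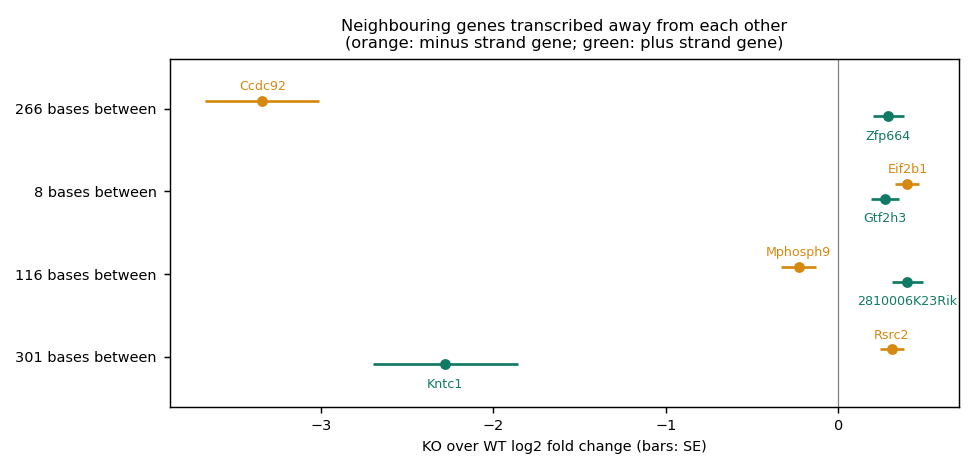
Log2 fold change (KO over WT, bars SE) of 4 pairs of neighbours read away from each other with starts under 1000 bases apart, minus strand gene in orange and plus strand gene in green. The genes of the Ccdc92 and Zfp664 pair and of the Rsrc2 and Kntc1 pair lie far apart, and Eif2b1 and Gtf2h3 lie 0.13 apart.

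Pairs that start close together held like and unlike fold changes. Zfp664 and Ccdc92 were 3.63 apart in log2 fold change, Kntc1 and Rsrc2 2.59, 2810006K23Rik and Mphosph9, with 116 bases between them, 0.63, and Gtf2h3 and Eif2b1 0.13. The pairs were chosen from the annotation after the fold changes had been seen, and the differences within them were not tested. Over the 31 flanking genes with promoter sequences, which have 35 windows of 300 bases, GGGCGG on either strand was found in 30 (85.7%), against 59.0% of 14641 promoters of tested protein-coding genes and 35.9% of all 32544 promoters. CCAAT was found in 14 (40%), against 37.0% and 37.4%, and TTTGAA in 4 (11.4%), against 12.5% and 17.8%. TATAAA was found in 0, against 7.8% and 13.6%. Windows of neighbouring starts overlap, so that Gtf2h3 and Eif2b1 share a GC box, and Kntc1 and Rsrc2 share GC boxes as well. The other flanking genes had no window, and Lrrc43, which was not fitted, is among the 31. These shares were not tested.

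The outermost genes below Ccdc92 changed little. Vps33a encodes a subunit of the HOPS and CORVET tethering complexes of endosomes and lysosomes. Vps33a (ENSMUSG00000029434.12, chromosome 5, 123528659 to 123573038, minus strand) had 1804.1, 1755.2, 1660.7 and 1693.0 normalized counts in KO libraries 1 to 4, against 2304.3, 1947.4, 2114.7 and 1931.6 in WT libraries 1 to 4. The KO libraries were all lower (log2 fold change -0.26, SE 0.08, limma adjusted p 0.0259), a call lost without KO library 3 (limma adjusted p 0.0635), KO library 4 (0.0535), WT library 1 (0.0513) or WT library 3 (0.0735). Of 7 other genes of these complexes, Vps18 (-0.89, limma adjusted p 0.00114) and Vps39 (-0.33, limma adjusted p 0.0164, and 0.0536 without WT library 3) were lower. Tgfbrap1 was higher (0.25, limma adjusted p 0.0207), without KO library 2 at 0.0502 and without WT library 3 at 0.0666.

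Clip1, a protein that tracks microtubule plus ends, showed no detectable difference. Clip1 (ENSMUSG00000049550.17, chromosome 5, 123577795 to 123684618, minus strand) had 3439.3, 3575.4, 3495.6 and 3383.6 normalized counts in KO libraries 1 to 4, against 3706.9, 3709.2, 3572.1 and 3330.5 in WT libraries 1 to 4. The groups overlapped, with a log2 fold change of -0.04 and a 95% interval of -0.20 to 0.11. Zcchc8, a subunit of the nuclear exosome targeting complex (-0.09, limma adjusted p 0.429), and Diablo, the mitochondrial antagonist of inhibitors of apoptosis (0.31, limma adjusted p 0.13), did not pass. Diablo passed after quantile normalization (0.52, limma adjusted p 0.0409).

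Across the 34 fitted flanking genes with a mean of at least 50 normalized counts, libraries of a group were tightly placed, with a median coefficient of variation of 8.0% in KO and 7.9% in WT. It reached 40% for 2 of these genes in KO and 1 in WT. The 85 partner genes of the complexes named here and of a few others had 22 higher and 19 lower. This was 48.2% called, against 41.7% of all genes tested and 44.4% of protein-coding genes, with a median log2 fold change of -0.02. The counts for single complexes, here and above, have the same shares of all genes as their background. In the network of Mlxip, which lies just outside the window, Mlxipl, the carbohydrate response factor ChREBP, was higher (1.08, limma adjusted p 0.00858) and Mlx lower (-0.33, limma adjusted p 0.0106). Among the inhibitors of apoptosis, Birc2 (0.28, limma adjusted p 0.0342) and Xiap (0.23, limma adjusted p 0.0435) were higher and Birc3 lower (-0.73, limma adjusted p 0.004). Lower were also Clip2 (-0.56, limma adjusted p 0.0176) and Clasp1 (-0.27, limma adjusted p 0.0238), which act at microtubule ends, Hip1, the paralog of Hip1r (-0.39, limma adjusted p 0.0328), and Kmt5c, which adds to the mark of Kmt5a (-0.48, limma adjusted p 0.00896). Birc2 and Xiap each lost their call without any one of KO libraries 1, 3 and 4 and WT libraries 1, 3 and 4 (limma adjusted p 0.0507 to 0.0971 and 0.0753 to 0.116). Clasp1 lost it without KO library 3 or 4 or WT library 2 or 3 (0.0538 to 0.0663), and Hip1 without KO library 1, 3 or 4 or WT library 1 or 3 (0.0693 to 0.0849). Mcts1, the partner of Denr (0.16), and Mtrex (0.03) and Rbm7 (-0.07), the partners of Zcchc8, did not pass.

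Just outside the 3 Mb window, 15 of 29 fitted genes (51.7%) were called, against 41.7% of all genes tested, and the 8 with the smallest adjusted p are given here. P2rx4 and P2rx7, which encode adjacent ATP-gated ion channels prominent in myeloid cells, were lower in KO (-1.36, limma adjusted p 0.00049, and -1.22, limma adjusted p 0.000379). Hvcn1, a proton channel of phagocytes (-1.58, limma adjusted p 0.00701), Orai1, a calcium channel (-0.46, limma adjusted p 0.00623), Arpc3, an actin nucleator subunit (-0.58, limma adjusted p 0.00687), and Ppp1cc, a phosphatase subunit (-0.52, limma adjusted p 0.00334), were lower as well. Tmem120b (1.53, limma adjusted p 0.00172) and Rhof, a small GTPase (0.96, limma adjusted p 0.00621), were higher.

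**Figure D5:**
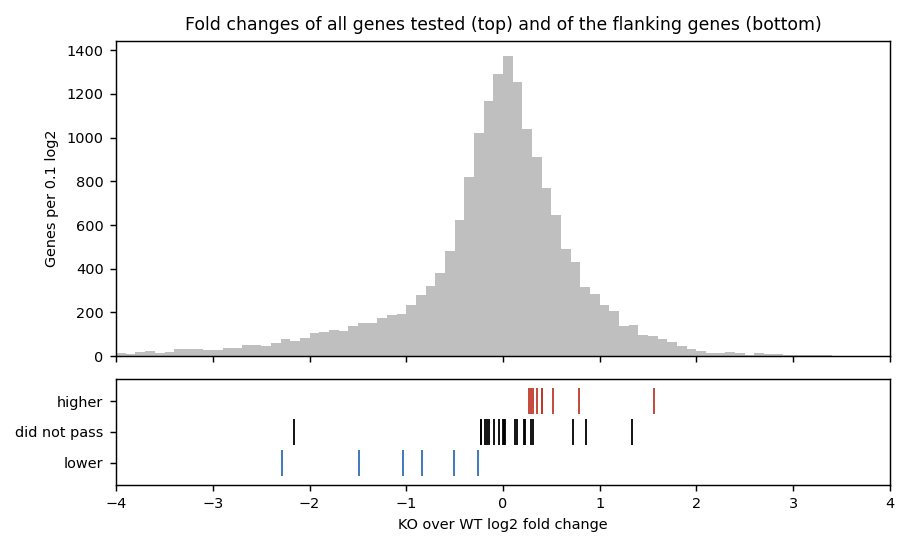
Histogram of the log2 fold changes (KO over WT) of all 17798 genes tested, in steps of 0.1 with 178 genes beyond the plotted range of 4 in either direction (top), and 35 of the 37 fitted flanking genes by call (bottom). The flanking genes spread on both sides of 0 within the bulk of all genes, with medians of 0.12 over all 37 and -0.01 over all genes.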

How the data were processed

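RNA libraries of eWAT, 4 from Ccdc92 KO and 4 from WT mice, were grouped by sample title. The authors deposited a signal table of normalized counts per gene; the tools STAR 2.7.7 and DESeq2 and the build GRCm38.p6 appear, per the submitters' processing notes, with no role. The sources used here do not give the read counter, the strand setting or the annotation. Of the gene identifiers, 24558 matched GENCODE M21 with their version and 24802 without, and 19 did not match. Distances run between annotated gene bodies, and strands and exons come from that annotation.

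Deposited values were moved to log2(normalized count + 1) and fitted by group in limma 3.58.1 (R 4.3.3), using its trended and robust empirical Bayes step. Genes with at least 10 normalized counts in at least 4 libraries entered, and p-values were adjusted by Benjamini-Hochberg over all 17798. Of the deposited values, 100.0% were whole multiples of 1 step per library within 0.01 of a read, and edgeR 4.0.16 and DESeq2 1.42.0 on these whole reads, as alternatives, called 3747 and 4080 genes higher and 3712 and 4256 lower. Other alternatives were pseudocounts of 0.5 and 10, filters, scalings, a replicate block and leaving libraries out.

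Values per library are given for the 4 fitted genes nearest to Ccdc92 on each side, up to 8 largest rises and 8 largest falls with a mean of at least 50, the 4 smallest changes, and members with known roles in fat, Scarb1 and Aacs among them. Some genes that the rule or the partner lists name enter the counts and are not reported here. Of the genes just outside the window, the 8 with the smallest p are named, and of the partner lists those that describe a complex. The genes, lists and tests were chosen with earlier results of these data known. Promoter windows hold 250 bases before and 50 after a RefSeq start on GRCm38.p6, searched on both strands.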

Additional observations from a re-analysis of the deposited data

Results flagged for a closer look

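In 84 groups of 4 libraries, KO and WT of the 40 flanking genes, Ccdc92 and Tctn2, 2 held a library far from the other 3, where chance flags about 1 group in 20. Denr had 942.3 normalized counts in KO library 4, against 1139.9, 1175.0 and 1141.5 in KO libraries 1 to 3. Snrnp35 had 203.2 normalized counts in KO library 3, against 219.5, 221.3 and 218.3 in KO libraries 1, 2 and 4.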

How the results depend on the processing

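Over 37 flanking genes and 19 alternatives, 626 of 700 values kept their direction and their side of the threshold, 29 called values lost the call, 16 gained one and 29 changed sign. Calls among flanking genes numbered 9 higher (6 to 10 with 1 library left out, 8 to 12 under other settings) and 7 lower (6 to 7 and 6 to 8). Among all genes, 2710 to 3410 higher and 2931 to 3669 lower were called with 1 library left out. The flanking genes had 32.4% to 51.4% called over the settings and all genes 31.4% to 47.5%. All 16 called genes kept their call under both pseudocounts and both filters, quantile normalization, edgeR and DESeq2, and 15 did under upper quartile scaling (Vps33a lost). Ccdc92 stayed lower at -3.52 to -3.19 with 1 library left out. Leaving out 1 library gave 16 to 23 higher and 14 to 20 lower partners, and 5 to 7 higher and 7 to 9 lower genes outside the window.

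The median log2 fold change of the flanking genes, 0.12, was 0.08 to 0.15 with 1 library left out. It moved to 0.07 with a filter of 50 or with no filter, 0.06 after quantile normalization (median of all genes 0.10), 0.18 after upper quartile scaling and 0.04 without KO libraries 1 and 2 together, a choice made after seeing the data. Genes called higher outside the window fell to 4, against 7, without WT library 4 and KO library 3 together.

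The replicate numbers were not taken to pair the samples. Deviations of libraries with the same number correlated at -0.143, 0.051, -0.041 and 0.172 across genes, and those with different numbers at -0.237 to 0.178. With 4 libraries per group centred on their mean, these values cannot exclude a pairing. A replicate block gave 8 higher and 6 lower flanking genes, 2989 higher and 3277 lower genes in all, and 4 higher genes outside the window; Vps33a (limma adjusted p 0.0536), Gtf2h3 (0.0886) and Zfp664 (0.0726) then lost the call and Ccdc62 gained it (0.0383).

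All changes of sign were in genes that did not pass. Arl6ip4 was at 0.00 with DESeq2 and without WT library 1, 0.01 without KO library 1 or KO libraries 1 and 2, 0.02 with edgeR and without WT library 2, 0.04 without KO library 4, 0.05 under upper quartile scaling and 0.06 under quantile normalization; with 1 library left out it ran from -0.06 to 0.04. Gm10382 was at 0.06 with DESeq2 and quantile normalization, 0.07 with edgeR, 0.04 without KO library 1 or WT library 2, 0.25 without KO library 2 and 0.70 without both KO libraries 1 and 2; with 1 library left out it ran from -0.45 to 0.25. Scarb1 was at -0.01 under quantile normalization, -0.00 without KO library 2 or 3, -0.07 without WT library 1 and -0.02 without WT library 3. Tmed2 was at -0.02 under quantile normalization, -0.00 without KO library 2, -0.01 without KO library 3 or KO libraries 1 and 2, -0.03 without WT library 4 and -0.05 without WT library 4 and KO library 3. Clip1 was at 0.01 under upper quartile scaling and Dnah10 at -0.03 without KO libraries 1 and 2. The cause of these changes was not tested. Genes of few counts, among them Dnah10, Rflna, Gm10382 and Ccdc92 in KO, are limited by depth.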
